A study of Rattus norvegicus with 2 samples.

Results

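The uroplakins Upk1a, Upk1b, Upk2, Upk3a and Upk3b are the proteins that cover the luminal face of the bladder, and their mRNA levels were compared between bladders of rats given dimethylarsinic acid (DMA), a methylated arsenic compound and rat bladder carcinogen, and bladders of control rats. The members were the genes named by the only symbol of a transcript cluster, a group of probes along a transcript. All 5 had such a cluster, 1 for each gene, among 22093 genes with a cluster of 1 symbol, so no choice between clusters was needed. The control group was 1 array of RNA pooled from 7 male F344 rats with 0 ppm DMA in the drinking water, and the treated group was 1 array of RNA pooled from 7 male F344 rats with 200 ppm DMA. Both groups were treated for 4 weeks, from an age of 6 weeks to an age of 10 weeks by the labels. The study's methods give an older age at the start and describe epithelial cells swirled off inverted bladders, whereas the labels name the urinary bladder, and the sources do not settle which was hybridised.

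Uroplakins are made by urothelial cells as these differentiate, and they are most abundant in umbrella cells, the superficial cells that face the urine. There they pack into rigid plaques, the asymmetric unit membrane, which help to make the bladder wall impermeable and are carried to and from the surface in fusiform vesicles. Upk1a and Upk1b are tetraspanins, and each pairs with a single-pass partner, Upk1a with Upk2 and Upk1b with Upk3a or Upk3b.

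In the deposited values, none of the uroplakins differed between the pools by as much as 1.1-fold after 4 weeks of DMA. The log2 ratio of DMA over control ran from -0.07 for Upk3b to 0.11 for Upk3a, with a median of 0.04 over the 5 genes, beside a median of -0.04 and quartiles of -0.18 and 0.08 over the 11718 measured genes. On other scales, given further on, log2 ratios of single members reached -0.26 and 0.26, which is past 1.1-fold. There the sign of every ratio but that of Upk3b changed, so higher and lower refer here to the deposited values. Genes were taken as measured if the brighter of the pools gave a signal of 100 or more, and all 5 uroplakins were above this minimum in both pools. A gene was called higher with a ratio of at least 2 and a Z score of at least 2, and lower with a ratio of at most 0.5 and a Z score of at most -2, where Z places the log2 ratio among the 500 genes closest to it in mean log2 signal. By this rule 0 uroplakins were higher and 0 were lower, against 1.79% of measured genes called in either direction (0.375% higher and 1.42% lower). A count of 0 of 5 lies near that background and says little beside the ratios themselves. There is 1 array per group and thus no spread between replicates, no test and no error for any ratio, and the pooling hides the spread between rats.

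The tetraspanin Upk1a, which carries the sugar that uropathogenic Escherichia coli bind, had a signal of 470635 (control pool) and 478998 (DMA pool). The DMA pool was thus 1.02-fold higher, at a Z score of 0.54. Its partner Upk2, which is made as a precursor and trimmed by the protease furin, had a signal of 544597 (control pool) and 561252 (DMA pool), which is 1.03-fold higher at a Z score of 0.60. The log2 ratios of this pair lay 0.02 apart.

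The other tetraspanin, Upk1b, which is also known from the cornea and the mesothelium, had a signal of 230456 (control pool) and 243297 (DMA pool). This is 1.06-fold higher, at a Z score of 0.71. Upk3a, whose loss in mice leaves small plaques and refluxing ureters, had a signal of 258438 (control pool) and 279529 (DMA pool). It was 1.08-fold higher, at a Z score of 0.82. The log2 ratios of this second pair lay 0.03 apart, and those of the 4 genes Upk1a, Upk2, Upk1b and Upk3a spanned 0.09.

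Upk3b, the alternative partner of Upk1b and in the mouse a marker of the mesothelium, was the only uroplakin below its control level on the deposited scale. Its signal was 1480 (control pool) and 1407 (DMA pool), which is 1.05-fold lower at a Z score of 0.04. The Z score was above 0 because genes of like signal were on average slightly lower in the DMA pool. Upk3a and Upk3b, which can take the same place in the complex, differed in log2 ratio by 0.19, below the neighbour SD of 0.34, the SD of log2 ratios among the genes nearest in signal to Upk3b. Signals of different genes depend on their probes and do not rank the members by mRNA amount.

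**Figure D1:**
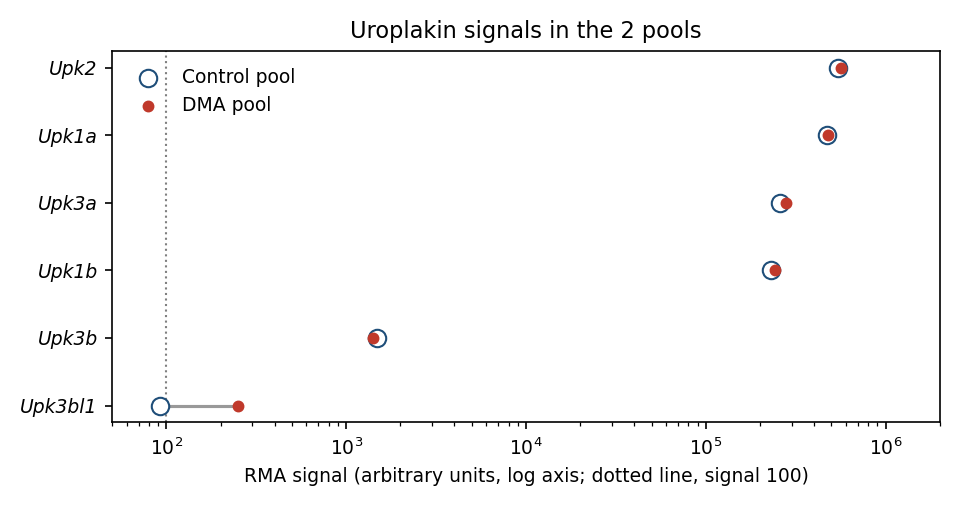
Signal of each uroplakin and of the relative Upk3bl1 in the control pool (open circles) and the DMA pool (filled points), on a logarithmic axis of RMA signal in arbitrary units, with 1 array per pool and no error bars. For the 5 uroplakins the points of both pools lie on each other, within 1.1-fold, whereas Upk3bl1 runs from 91.6 to 250; positions of different genes along the axis do not compare their mRNA amounts.

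Sequence before a transcript start of the tetraspanin Upk1b, of its partner Upk3a and of the alternative partner Upk3b is shown so that the genes can be set side by side. Windows from RefSeq (GRCr8), limited to the 250 bases before the transcript start that the table uses, matched 4 of the 5 members, not Upk2. That start is not always the outermost one of the gene. The windows of Upk1a and Upk3a lie wholly (250 bases) within the annotated span of their genes and that of Upk1b lies partly within it (137 bases), while the Upk3b window lies outside its gene (0 bases within), so they need not hold the main promoter. They are printed 5′ to 3′ on the strand of the gene, with capitals for the matches described after them. The windows are chr11:75459131-75459380 on the plus strand for Upk1b, chr7:118014540-118014789 on the plus strand for Upk3a and chr12:26274241-26274490 on the minus strand for Upk3b.
Upk1b: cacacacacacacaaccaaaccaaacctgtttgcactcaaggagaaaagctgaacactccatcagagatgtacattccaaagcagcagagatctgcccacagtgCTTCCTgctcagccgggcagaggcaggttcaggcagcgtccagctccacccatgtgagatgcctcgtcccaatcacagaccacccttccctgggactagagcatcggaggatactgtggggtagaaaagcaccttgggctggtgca
Upk3a: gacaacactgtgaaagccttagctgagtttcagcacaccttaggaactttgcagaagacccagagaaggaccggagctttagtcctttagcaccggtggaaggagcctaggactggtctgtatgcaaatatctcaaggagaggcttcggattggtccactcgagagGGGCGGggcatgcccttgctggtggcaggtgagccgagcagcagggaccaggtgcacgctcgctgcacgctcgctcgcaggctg
Upk3b: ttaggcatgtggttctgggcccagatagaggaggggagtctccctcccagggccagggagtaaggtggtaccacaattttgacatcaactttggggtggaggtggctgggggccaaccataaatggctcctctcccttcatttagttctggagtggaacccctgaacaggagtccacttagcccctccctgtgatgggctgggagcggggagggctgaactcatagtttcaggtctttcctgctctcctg

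The windows were searched on both strands for 7 strings. These were the letters AGATAA for zinc finger factors such as Gata3, the letters AGGTCA as the half-site of nuclear receptors such as Pparg, the letters TGTTTAC for forkhead factors such as Foxa1, the letters AACCGG as the half-site of grainyhead-like factors, the letters AGGAAG for ETS factors such as Elf3, the letters GGGCGG of the GC box and the letters TATAAA of the TATA box. No matches overlapped. AGGAAG was found once, on the minus strand of the Upk1b window from 146 to 141 bases before the start, and 29.5% of the 33469 windows of this length in the table hold it. GGGCGG was found once, in the Upk3a window from 84 to 79 bases before the start, and 30.5% of windows hold it. The Upk1a and Upk3b windows held none of the 7 strings. The other strings, held by 10.3% (AGATAA), 14.1% (AGGTCA), 3.21% (TGTTTAC), 5.67% (AACCGG) and 12.9% (TATAAA) of windows, were in none of the 4. The share of G and C was 61.2% for Upk1a, 54.8% for Upk1b, 58.0% for Upk3a and 56.4% for Upk3b, beside a median of 51.2%, and the Upk3a window held 11 CpG dinucleotides against 4 for Upk1b, 1 for Upk1a, 1 for Upk3b and a median of 5. These are matches of letters in a window and not binding sites, and the arrays hold no measurement of methylation or binding.

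Among the measured genes, Upk3a had a higher log2 ratio than 79.9%, Upk1b than 74.2%, Upk2 than 67.6%, Upk1a than 64.1% and Upk3b than 43.1%. A difference under 1.1-fold was common, since 51.9% of measured genes were within it. Upk1a, Upk2, Upk1b and Upk3a were among the 500 brightest measured genes, and these 500 genes had a median log2 ratio of -0.10 with 29.8% above 0, beside 41.1% above 0 for all measured genes. The 4 uroplakins, with a mean log2 ratio of 0.07, thus lay on the less common side of 0 among the 500 brightest genes. The SD of log2 ratios was 0.31 among the 500 brightest genes and 0.32 among all measured genes, and 6 of the 500 were called lower and 0 higher. The highest signal of any cluster was 888031 (control pool) and 873102 (DMA pool), so Upk2 and Upk1a lay in the upper part of the arrays' range. The SD of 0.31 is over the 500 brightest genes as a whole and is no spread at the signals of Upk2 and Upk1a alone.

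**Figure D2:**
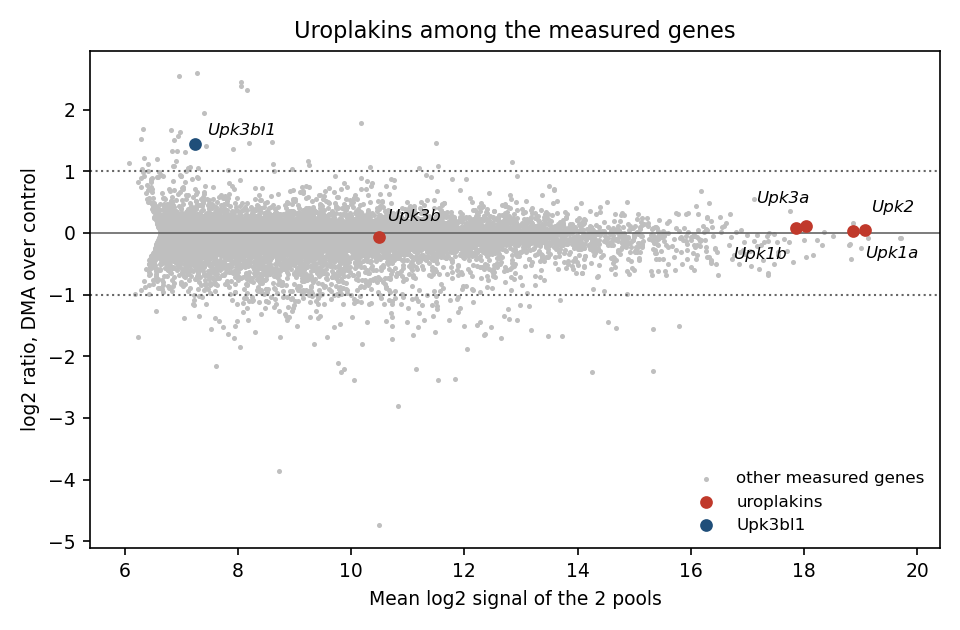
Log2 ratio of DMA over control against mean log2 signal for the 11718 measured genes (grey), the 5 uroplakins (red) and Upk3bl1 (blue), with dotted lines at a ratio of 2 and of 0.5. The uroplakins lie between -0.07 and 0.11, 4 of them at the bright end, whereas Upk3bl1 lies at 1.45.

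The sign of these small ratios depended on the scale. With each array centred on its median, which shifts every log2 ratio by 0.099 downwards, Upk3a stayed above 0 (0.015) while Upk1a (-0.073), Upk2 (-0.055) and Upk1b (-0.020) came below it. After a loess correction for the trend of ratio with signal, these 4 genes were at 0.19 to 0.26 and Upk3b was at -0.035. Another scale set the uroplakins against other epithelial genes, a list of 15 genes such as Cdh1, the adhesion molecule E-cadherin, of which 14 were measured. The median log2 ratio of that list was 0.19, with 10 of 14 genes above 0 and 0 called, and relative to it all 5 uroplakins were below 0, from -0.08 for Upk3a to -0.26 for Upk3b. None of the 5 was called on any of these scales. Ratios relative to Cdh1 and its like are the only ones of the 4 scales on which the family had one sign.

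**Figure D3:**
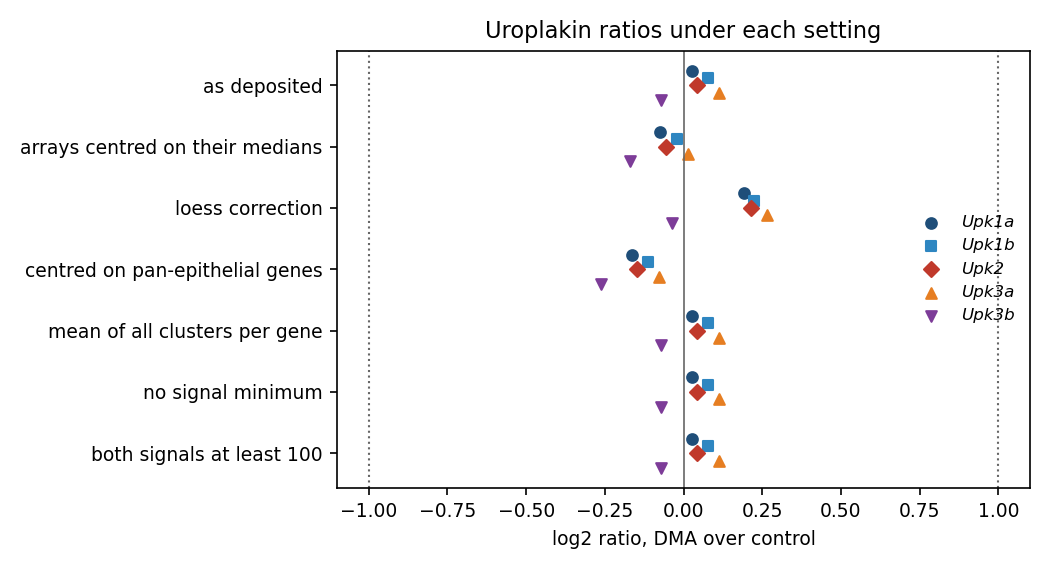
Log2 ratio of DMA over control for each uroplakin (symbols) as deposited and under 6 other settings. Dotted lines mark a ratio of 2 and of 0.5. Only the other scales (arrays centred on their medians, loess, centring on pan-epithelial genes) could change a uroplakin ratio. The remaining settings return the deposited value of each uroplakin by construction. Upk3b is below 0 as deposited and on each other scale. The other 4 genes lie above 0 as deposited. They change sign when the arrays are centred on their medians (Upk3a stays above 0) or on the pan-epithelial genes. None of the 5 reaches a dotted line.

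The relative Upk3bl1, which lies next to Upk3b among the protein-coding genes of the assembly GRCr8 and is named for its likeness to it, differed from the family. Its signal was 91.6 (control pool) and 250 (DMA pool). It was 2.73-fold higher with a Z score of 4.67 and was called, and its log2 ratio exceeded that of Upk3b by 1.52. The control signal was below the minimum of 100, so the gene counted as measured through the DMA pool alone, which fixed its sign. Its log2 ratio was 1.26 to 1.48 in the 6 alternatives that gave a value and it was called in all of them, but it was not measured where both signals had to reach 100. As a relative of Upk3b it may share probe sequence with other genes, so its value is uncertain. Upk3bl1 is not counted among the members.

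Genes that process uroplakins or move their vesicles had log2 ratios from -0.24 to 0.24, a wider range than that of the uroplakins but over more genes. Of 14 such genes 14 were measured, 0 were called in either direction, 8 were above 0 and the median log2 ratio was 0.03. Mal, a raft protein that helps fusiform vesicles to enter the apical membrane, had the largest ratio, 1.18-fold higher (73889 (control pool) and 87091 (DMA pool)). Snap23, a SNARE protein of vesicle fusion, was 1.18-fold lower (2805 and 2383). Vamp7, another SNARE protein, and Mal2, a relative of Mal, had log2 ratios of 0.21 and 0.19. Snx31, a sorting nexin that binds uroplakins on their way to degradation, was at -0.04, and Furin was at 0.18. The list median came below 0 with the arrays centred on their medians (-0.074) or on the pan-epithelial genes (-0.16).

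Other markers of differentiated urothelium, a larger set, had a wider range of ratios than the uroplakins. Of 12 genes 11 were measured, 0 were higher and 1 was lower, with a median log2 ratio of 0.02 that lay between -0.17 and 0.14 over the scales. The gene called lower was Krt20, the keratin that marks umbrella cells, which had a signal of 4469 (control pool) and 1905 (DMA pool), 2.35-fold lower at a Z score of -3.84. Krt20 and the uroplakins are thus umbrella cell genes with different ratios in these pools, with Krt20 at -1.23 and no uroplakin below -0.07. Krt18, a keratin of simple epithelia, was 1.61-fold higher (58734 and 94342) in its brightest cluster. The mean over its 2 clusters gave a log2 ratio of 0.46, against 0.68 for the brightest. The claudin gene Cldn7 was 1.53-fold higher (1025 and 1567) and Krt8, the partner of Krt18, was 1.24-fold higher (30768 and 38014). Neither Krt18, Cldn7 nor Krt8 was called.

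Among the basal markers 11 of 13 were measured, and 1 was higher and 0 were lower. Their log2 ratios ran from -0.33 to 1.47, with 8 genes above 0 and 3 below it. The basal keratin gene Krt14 had signals of 1752 and 4840 and was 2.76-fold higher, and the hemidesmosome and laminin genes Itgb4, Lamb3 and Col17a1 had log2 ratios of 0.53, 0.49 and 0.47 and were not called. The list median was 0.15, above the log2 ratio of each uroplakin, and it was -0.036 when centred on the pan-epithelial genes. The transcription factors that act in urothelial differentiation lay on both sides of 0, with 14 of 14 measured, 0 called, log2 ratios from -0.72 to 0.59 and a median of -0.02 that was 0.046 after the loess correction. Pparg, a nuclear receptor that drives differentiation and uroplakin expression, was 1.16-fold lower (20733 and 17943), and Klf4, Ovol1 and Elf3 had log2 ratios of -0.72, 0.59 and 0.41. Grhl3, a grainyhead-like factor needed for umbrella cells in the mouse, was at 0.02.

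The tetraspanins outside the uroplakin family were a wider set. Of 29 genes 22 were measured, 0 were higher and 1 was lower, and their median log2 ratio was -0.05 (0.022 with no signal minimum), beside 0.03 and 0.08 for Upk1a and Upk1b. Cd53, a tetraspanin of leukocytes, was 2.21-fold lower (1902 and 859). Tspan8, an epithelial tetraspanin, had the highest ratio of the list, 1.90-fold (5678 and 10812), and missed the ratio threshold. Tspan18 and Cd37, known from endothelial cells and leukocytes, had log2 ratios of -0.90 and -0.81.

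By a fixed rule, the gene of the urothelial lists nearest in log2 ratio was noted for each member over the 2 arrays, from 64 measured genes. It was Esrp2 for Upk1a, Irf1 for Upk1b, Klf5 for Upk2, Krt19 for Upk3a and Gata3 for Upk3b, at differences of at most 0.015. Many genes lie near 0, so a close ratio over 2 arrays describes no shared pattern.

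Markers of other cell types differed between the pools, and their values are given beside those of the uroplakins. In bulk RNA, fewer cells of a type and less RNA per cell cannot be told apart. Of 10 fibroblast and matrix markers 9 were lower, with a median log2 ratio of -1.48 and a summed signal of 454420 (control pool) and 217752 (DMA pool). All 10 smooth muscle markers were below 0 and 0 were called, with a median of -0.39 and a summed signal of 739800 and 570837. Des, the muscle intermediate filament desmin, gave 78396 and 67937, bright in both pools. Endothelial and leukocyte markers had medians of -0.41 (0 of 6 called) and -0.84 (2 of 6 lower), and both measured red cell markers, Hba-a1 and Hbb, were lower, where Hbb (223 and 99.6) passed the minimum through the control pool alone and Hba-a1 was the only call with both signals at 100 or more. Of 5 measured cycling cell markers 3 were higher. Mki67 (117 and 611, 5.24-fold) and Ccna2 (107 and 282, 2.64-fold) had both signals above 100 and were called in all 7 alternatives. Top2a, the other call, and the uncalled Ccnb1 and Bub1 had control signals under 100 (86.5, 65.5 and 60.5), so that the minimum fixed their sign. The list median was 0.82 with no minimum and 1.90 with both signals at 100 or more. The part of these shifts in the uroplakin ratios was not tested.

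For Upk3b and Upk1b the mesothelium, the outer lining of the bladder, is a known source besides the urothelium. Of 8 mesothelial markers without the uroplakins 5 were measured, and Lrrn4 and Muc16 were lower, 2.93-fold (314 and 107) and 2.69-fold (333 and 124). Gpm6a was at -0.84 (137 and 76.5), Cldn15 at -0.09 and Msln, which encodes mesothelin, at 0.35 (1933 and 2466). Gpm6a passed the minimum through the control pool alone, which fixed its sign. The list median of -0.84 was the ratio of Gpm6a itself. That median was -0.26 with no signal minimum and -0.76 with both signals at 100 or more. Wt1, Bnc1 and Calb2 did not reach a signal of 100 in either pool. The summed signal of the 5 genes was 2826 and 2876, most of it from Msln, which epithelia also express. Upk3b, at -0.07, lay within the spread of these 5 markers, and how much of its signal came from either lining was not tested.

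**Figure D4:**
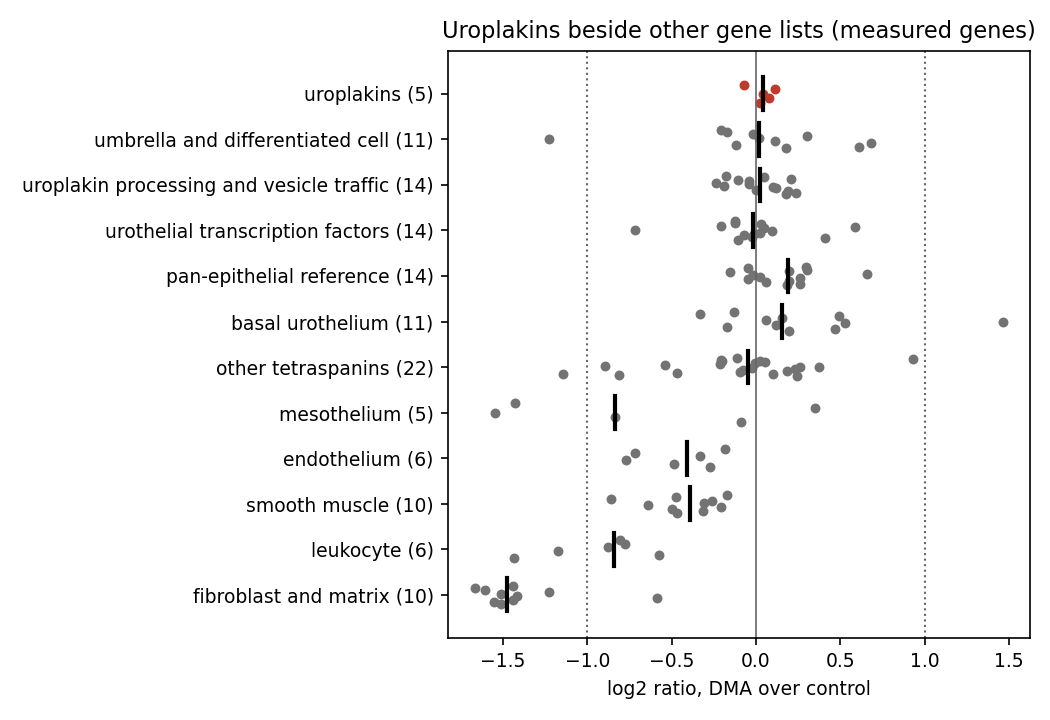
Log2 ratio of DMA over control for each measured gene of 12 lists (points; number of genes in brackets), with a bar at each list's median and dotted lines at a ratio of 2 and of 0.5. The uroplakins (red) span -0.07 to 0.11, the narrowest range of the lists shown, while fibroblast and matrix genes have a median of -1.48. A range tends to widen with the number of genes, and most lists hold more genes than the 5 uroplakins. List medians near 0 change sign with the scale.

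Across all measured genes, the arrays correlated with Pearson's r = 0.989 in log2 signal (taken across genes, so the points are no replicates). In all, 44 genes were called higher and 166 lower, and the split was 24 and 318 with the ratios centred on the pan-epithelial genes. It was 19 and 159 with both signals at 100 or more.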

How the data were processed

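Expression was measured on 2 arrays, 1 of pooled control RNA and 1 of pooled RNA from DMA-treated rats, and groups were taken from the labels. The deposited values are linear signal intensities, which the authors made with RMA (background correction, normalization between arrays, summary per cluster) in Affymetrix Expression Console 1.4.1, per the labels. The genome build and annotation of the array are not given in the sources used here, so no coordinates of the clusters were used. All values were antilogs of log2 numbers with 6 decimals and were taken back to log2. RMA would remove a change shared by most transcripts. The study's methods name another array, global median scaling and a cutoff at 100. Neither step had been applied to the deposited signals, which go below 100 and have medians of 49.7 (control) and 53.2 (DMA).

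Of 68842 clusters, 23446 carried 1 symbol on the platform, 505 carried several and 44891 none, and only the first were used. Symbols were updated by gene identifier (22077 clusters) with the RefSeq table of GRCr8. The brightest cluster stood for a gene. The thresholds were those of the methods; the minimum on the higher signal and the 500 neighbours for Z were choices made here. The members and gene lists were chosen with earlier results of these data known. Named were all members, Upk3bl1, up to 4 measured genes of each list by absolute log2 ratio, and the gene nearest to each member. For some lists the text gives counts and medians in place of some or all of these genes. Genes named beside these (Snx31, Furin, Grhl3, Cdh1, Des, Cldn15) were added for their role after their values were seen. Bub1, Wt1, Bnc1 and Calb2 were named because of a signal under 100. Listed symbols were matched through synonyms where needed. No test was possible with 1 array per group, and the number of arrays limits the precision. The calling step alone was checked on simulated ratios with known changes, which gives no error for these pools. The work used Python 3.11.15, pandas 2.3.3, numpy 2.4.6 and statsmodels 0.14.6 (loess span 0.4).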

Additional observations from a re-analysis of the deposited data

How the results depend on the processing

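The 7 alternatives were 3 other scales (arrays centred on their medians, loess, centring on pan-epithelial genes), the mean of all clusters per gene, no signal minimum, a minimum of 100 on both signals, and Z over all measured genes. Under each of them 0 uroplakins were called higher and 0 lower, and no uroplakin ratio moved by as much as the SD of the 500 genes nearest in signal. Over the alternatives the log2 ratio ran from -0.16 to 0.19 for Upk1a, from -0.11 to 0.23 for Upk1b, from -0.15 to 0.22 for Upk2, from -0.08 to 0.26 for Upk3a and from -0.26 to -0.035 for Upk3b. Only the 3 other scales could change these ratios, since each uroplakin had 1 cluster and was above the minimum in both pools. The sign of Upk3b alone held on all of them. Its ratio was small beside the neighbour SD of 0.34, and 1 array per group gives no error, so no direction can be given for any member. The median of the family was -0.055 after centring each array on its median and -0.15 with the ratios centred on the pan-epithelial genes. That last scale lowers every log2 ratio by 0.19; of the measured genes 24 were then higher and 318 lower, and Cd37, Csf1r, Gpm6a, Smtn and Tspan18 were then called lower as well. With both signals at 100 or more, 19 genes were higher and 159 lower. That setting drops genes with a control signal under 100, which were measured only through a higher signal in the DMA pool. It also drops genes with a DMA signal under 100, which were measured only through a higher signal in the control pool. No call of a named gene was lost where the gene was measured. No paired analysis was possible because each group is 1 array, and leaving out an array leaves no comparison.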
